A study of Mus musculus with 4 samples.

Results

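The Pi16/Dpt fibroblasts of subcutaneous Pan02 tumours were selected on the UMI counts of marker genes, so the values of those genes describe the choice and are no finding. They numbered 3314 of the 63443 cells kept in 4 single-cell libraries. Of these, 298 of 14392 kept cells came from the anti-PD-1 library, 1005 of 14014 from anti-LIF, 1483 of 16397 from combo and 528 of 18640 from control. A unique molecular identifier (UMI) stands for 1 captured RNA molecule. Cells were kept from 200 genes upward and up to a mitochondrial share of 20% of UMIs. A fibroblast gate then asked for at least 3 UMIs of Dcn and 5 of Col3a1, at most 1 of Krt8 and Krt18 together, and 0 of Ptprc, Pecam1 and Cdh5, and it held 5777 cells. Members were the gated cells with at least 2 UMIs summed over Pi16, Clec3b, Dpt and C3 and more of these than of Lrrc15, Thbs2, Cthrc1 and C1qtnf3. The opposite choice gave 2263 cells, called Lrrc15-type here.

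Pan02 is a mouse pancreatic cancer cell line. Per the labels, Pan02 cells were injected under the skin of the right flank of female C57BL/6 mice aged 6 to 7 weeks, and the mice were randomised when tumours reached about 50 mm3. The libraries are labelled anti-PD-1, anti-LIF, anti-PD-1+anti-LIF (combo) and IgG (control). PD-1 is a checkpoint receptor of T cells and LIF a cytokine of the interleukin-6 family. The stated doses were 200 µg of anti-PD-1 antibody, given 3 times a week to the endpoint together with 25 mg/kg of either IgG or the LIF antibody, and the labels do not spell out the doses of the other 2 groups. Each library combined 3 samples, and its cells cannot be assigned to an animal. The labels call the cells of every library Pan02 cancer cells, although host cells were present too. With 1 library per condition there was no replicate, so no difference between conditions was tested. Values in brackets after a share or a ratio are 95% intervals that cover counting error only. All 3 comparisons with control rest on the same control library.

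Fibroblasts with Pi16 and Dpt are known from many mouse tissues as adventitial or universal fibroblasts. They lie around vessels and in fascia, carry Cd34, Ly6a and Dpp4, and are regarded as a source of specialised fibroblasts. In pancreatic tumours, fibroblasts that secrete Il6, Cxcl1, Cxcl12 and complement are called inflammatory, and those that contract and lay down collagen are called myofibroblastic. Interleukin-1 and the LIF and STAT3 route are known to favour the inflammatory state, and transforming growth factor beta the myofibroblastic state.

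Members were a smaller share of all kept cells in the anti-PD-1 library than in control, and a larger share in both libraries with anti-LIF. They made up 2.07% (1.84 to 2.32) of kept cells with anti-PD-1, 7.17% (6.75 to 7.61) with anti-LIF, 9.04% (8.61 to 9.49) in combo, and 2.83% (2.60 to 3.08) in control. The log2 ratio to control was -0.45 (-0.66 to -0.24) with anti-PD-1, against 1.34 (1.19 to 1.495) with anti-LIF, and combo stood at 1.67 (1.53 to 1.82). The larger share with anti-LIF was not particular to members. The whole fibroblast gate made up 4.76, 14.15, 14.19 and 4.195% of kept cells in anti-PD-1, anti-LIF, combo and control. Lrrc15-type cells made up 2.44, 6.46, 4.76 and 1.21% in these libraries. Their log2 ratios to control were 1.01 with anti-PD-1, 2.41 with anti-LIF and 1.97 in combo. A stricter count took only members with no marker UMI of other cell types. Here and below these were T and NK, macrophage, neutrophil, endothelial, pericyte and skeletal muscle cells. The stricter count left 75 anti-PD-1, 292 anti-LIF, 368 combo and 223 control members. Over all kept cells, their log2 ratios to control were -1.19 with anti-PD-1, 0.80 with anti-LIF, and 0.91 in combo. The filter weighed unevenly on the libraries: a macrophage marker UMI was in 52.35, 53.63, 60.42 and 20.08% of all anti-PD-1, anti-LIF, combo and control members. A pericyte marker UMI was in 26.85, 33.23, 30.14 and 32.39% of these members, so the filter took out many members on that ground too. Shares of kept cells depend on all other cells of a library and on the removal of debris and dead cells, which the labels call optional without naming libraries. Their part in the differences was not tested.

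Within the fibroblast gate, the share of members was lower in both single-antibody libraries than in control. It was 43.5% (39.8 to 47.3) with anti-PD-1, 50.7% (48.5 to 52.9) with anti-LIF, 63.7% (61.7 to 65.7) in combo, and 67.5% (64.1 to 70.8) in control. The log2 ratio to control was -0.63 (-0.84 to -0.43) for anti-PD-1 and -0.41 (-0.57 to -0.26) for anti-LIF. For combo it was -0.08 (-0.23 to 0.06). These ratio intervals treat member counts as free of the gate size, so they are too wide for shares this large. Whether the combo value lies within counting error was thus not settled. Lrrc15-type cells took most of the rest of the gate, with 51.2% for anti-PD-1, 45.6% for anti-LIF, 33.6% for combo, and for control 28.9%.

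**Figure D1:**
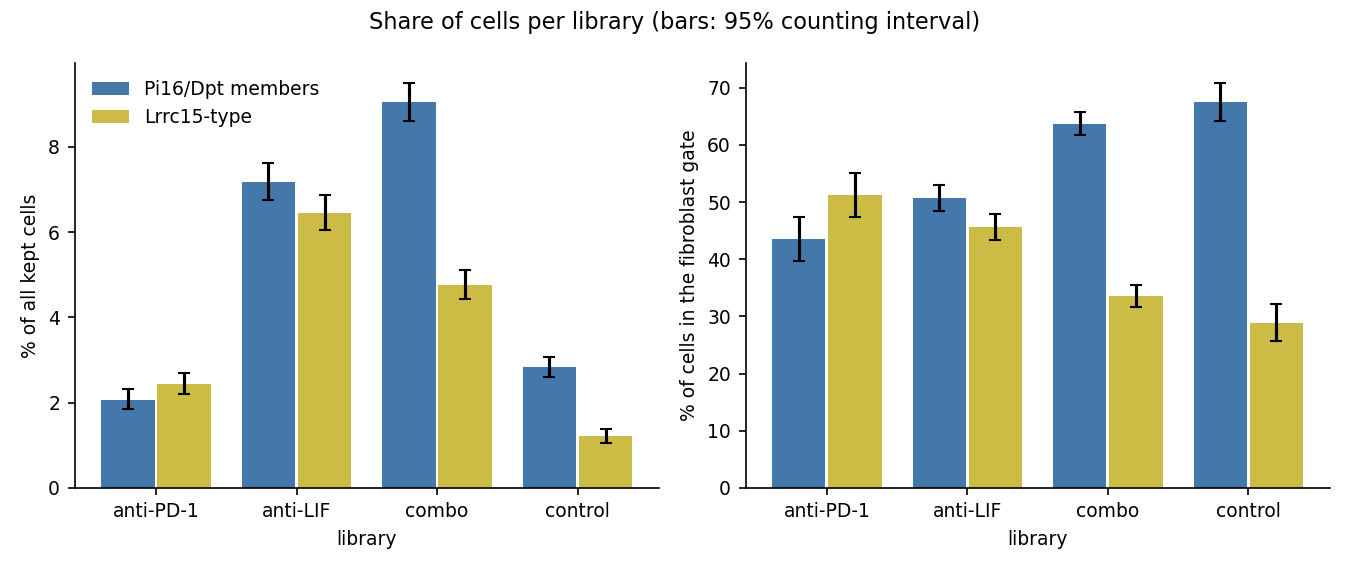
Percent of all kept cells (left) and of cells in the fibroblast gate (right) that were Pi16/Dpt members or Lrrc15-type cells in each library, with 95% counting intervals. Members were 9.04% of kept cells in combo and 2.83% in control, and 63.7% of the gate in combo and 67.5% in control.

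The libraries differed in depth and in RNA of other cells. The median member had 3662 UMIs with anti-PD-1, 3260 with anti-LIF, 5487 in combo, and 4651 in control. Between 1.76% and 2.05% of the kept barcodes of the smaller library of a pair recurred in the other. Such barcodes made up 4.17% to 5.71% of the members of a library, and at most 2 members of a library shared a barcode with a member elsewhere. Doublets were not called, and 16, 31, 65 and 6 members of the anti-PD-1, anti-LIF, combo and control libraries had 20000 UMIs or more. RNA levels are given as CPM, the UMIs of a gene per 1000000 UMIs summed over the members of a library. The 8 T and NK cell markers together stood at 9.03 CPM with anti-PD-1, 19.9 with anti-LIF, 9.61 in combo, and 143 in control members, and Cd4 was at 0 with anti-PD-1. The 9 macrophage markers stood at 204, 317, 289.7 and 63.9 CPM in members of the anti-PD-1, anti-LIF, combo and control libraries, none at 0. The 6 neutrophil markers stood at 40.15, 18.2, 185 and 65.2 CPM in members of these libraries, with Ly6g at 0 outside combo. A neutrophil marker UMI was in 22.5, 5.17, 5.80 and 5.30% of these members.

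The pattern of muscle and tendon RNA was different again. The 8 skeletal muscle markers stood at 293 CPM with anti-PD-1, 8.46 with anti-LIF, 26.0 in combo, and 5.41 in control members, where Ckm and Myh4 were at 0. The 8 tendon and fascia markers stood at 2471, 2000, 1607 and 1243 CPM in members of the anti-PD-1, anti-LIF, combo and control libraries, and Cilp2 and Chodl were at 0 with anti-PD-1. In Lrrc15-type cells of these libraries they stood at 2228, 2817, 3997 and 2520 CPM, and outside the gate at 85.2, 208, 191 and 39.8 CPM. The tendon and fascia markers were thus higher in gated fibroblasts than in other cells. In each of the T and NK, macrophage, muscle and tendon lists at least 6 markers had a UMI.

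Most members entered through Dpt and C3. Dpt, which codes for the small matrix protein dermatopontin, had a UMI in 94.3, 94.3, 97.1 and 95.1% of members of the anti-PD-1, anti-LIF, combo and control libraries. C3, the central complement component, had one in 95.3, 93.6, 98.0 and 94.7% of anti-PD-1, anti-LIF, combo and control members. Pi16, a peptidase inhibitor of the cell surface, was seen in 19.1, 16.6, 31.7 and 29.0% of anti-PD-1, anti-LIF, combo and control members. Clec3b, which codes for the plasminogen-binding protein tetranectin, was seen in 26.2% with anti-PD-1, 28.9% with anti-LIF, 36.8% in combo and 30.3% in control. A Pi16 transcript was thus caught in a minority of the members.

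Each cell was then reduced at random to 1500 UMIs, which removes differences in depth between cells and leaves out shallower ones. This left 229 anti-PD-1, 723 anti-LIF, 1167 combo and 423 control members. Pi16 was then seen in 8.73, 7.75, 14.2 and 14.9% of the anti-PD-1, anti-LIF, combo and control members, against at most 0.228% of the T cells of any library, which should lack it. The T cells, defined by Cd3e or Cd3d with no Dcn, had median depths of 1441, 1350.5, 1678 and 1725.5 UMIs in anti-PD-1, anti-LIF, combo and control, and were not pure, with macrophage markers at 4188 CPM in anti-PD-1 and 942 CPM in control. After thinning, exactly 2 of the 4 markers were found in 65.1% of anti-PD-1 members, 67.5% of anti-LIF, 69.6% of combo, and 65.0% of control members.

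Pi16 stood at 56.2, 55.4, 106 and 102 CPM in members of the anti-PD-1, anti-LIF, combo and control libraries, and the single-antibody libraries were the low pair. Dpt stood at 2251 CPM with anti-PD-1, 3152 with anti-LIF, 3601 in combo and 3698 in control. C3 stood at 5471 CPM with anti-PD-1, 6559 with anti-LIF, 10710 in combo and 6705 in control. Few cells lay at the threshold of 2 UMIs. Of the anti-PD-1, anti-LIF, combo and control members, 5, 24, 16 and 7 had just 2 UMIs of the markers, and 3, 11, 6 and 5 gated cells with 1 UMI fell outside. The border with Lrrc15-type cells was less sharp, since 78.9%, 78.7%, 77.6% and 76.5% of the anti-PD-1, anti-LIF, combo and control members also had a UMI of Lrrc15, Thbs2, Cthrc1 or C1qtnf3. Outside the members, 172, 633, 571 and 101 gated cells of these libraries had at least 2 UMIs of the markers but more of those genes. Ties kept out 8, 35, 35 and 11 such cells. Thbs2, an anti-angiogenic matrix protein, was in 66.7% to 73.2% of the members of a library, and Lrrc15, a membrane protein with leucine-rich repeats, in 7.95% to 18.6%.

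Genes outside the rule were set against Lrrc15-type cells of the same library. Both sets come from the rule, so this describes the choice and was not tested. Among 12762 genes with at least 30 UMIs, 6.5% had a mean log2 ratio of at least 1 with the same sign in all 4 libraries, 4.11% one of at most -1, and the median gene was at 0.06. Of 26 adventitial genes outside the rule, 16 were higher by this measure and 0 lower, with a median of 1.51. Tnxb, which codes for tenascin X, had a mean log2 ratio of 2.96, and the surface sialomucin gene Cd34 had 1.57. Dpp4, a surface peptidase, stood at 48.7, 84.8, 141 and 108 CPM in anti-PD-1, anti-LIF, combo and control members, against 14.4, 48.4, 22.8 and 6.99 CPM in the Lrrc15-type cells of these libraries. Within every library Dpp4 was higher in the members. Its 48.7 CPM in anti-PD-1 members lay close to the 48.4 CPM of anti-LIF Lrrc15-type cells.

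Inflammatory genes were on the same side, with 19 of 29 outside the rule higher, 0 lower and a median of 1.59. Il6, a cytokine that signals through Il6st and STAT3, stood at 556, 832, 844 and 449 CPM in anti-PD-1, anti-LIF, combo and control members, against 88.3, 89.2, 89.2 and 22.9 CPM in the Lrrc15-type cells of these libraries. Cxcl12, the ligand of Cxcr4 on lymphocytes, stood at 936, 1042, 991 and 935 CPM in anti-PD-1, anti-LIF, combo and control members, against 118, 124, 76.4 and 142 CPM in Lrrc15-type cells. After thinning, Il6 was seen in 28.4, 36.4, 37.5 and 23.2% of anti-PD-1, anti-LIF, combo and control members, and in 0.829% to 1.35% of T cells. Of 16 complement genes outside the rule, 8 were higher, among them C4b (2.94), the alternative pathway gene Cfb (2.27) and the C1 inhibitor gene Serping1 (1.34), and Cd59a was lower.

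Myofibroblastic genes were on the other side, with 0 of 25 outside the rule higher, 16 lower and a median of -1.70. Acta2, the smooth muscle actin gene, stood at 292, 139, 124 and 92.6 CPM in anti-PD-1, anti-LIF, combo and control members, against 1103, 1067, 1555 and 603 CPM in the Lrrc15-type cells of these libraries. Igfbp3, a carrier of insulin-like growth factors, had a mean log2 ratio of -3.73 and Tagln, an actin-binding protein, one of -3.35. Antigen-presenting fibroblast genes did not set the members apart, with Wt1 as the 1 gene of 9 that was higher and a median of 0.20. Parenchymal genes, known from fibroblasts inside tissues that carry Col15a1, were on the same side as the adventitial ones, with 11 of 18 higher, 0 lower and a median of 1.34. The lists outside the rule thus set the members apart from the myofibroblastic genes, and did not set adventitial apart from parenchymal genes.

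**Figure D2:**
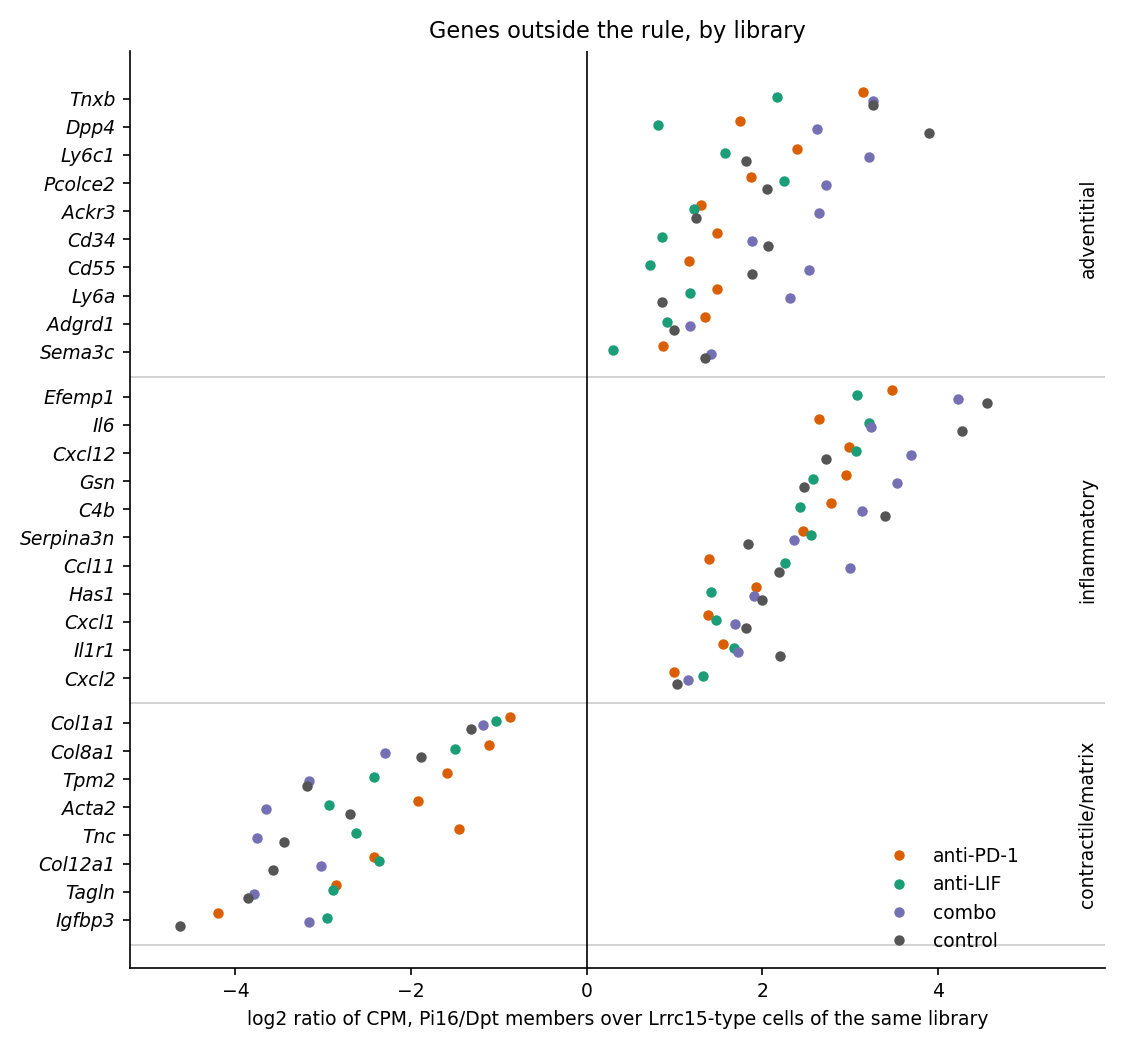
Log2 ratio of CPM in Pi16/Dpt members over Lrrc15-type cells of the same library for genes outside the rule, 1 point for each library. The adventitial and inflammatory genes drawn lie right of 0 and the contractile and matrix genes left of 0 in all 4 libraries, with means of 3.35 for Il6 and -2.80 for Acta2.

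By a fixed rule of size, the 10 genes highest over Lrrc15-type cells were Cxcl13, Vtn, Crocc2, Hp, Inmt, Agtr2, Serpina3c, Cldn15, Agt and Adhfe1. Cxcl13, a chemokine that draws B cells through Cxcr5, stood at 261, 181, 514 and 75.03 CPM in anti-PD-1, anti-LIF, combo and control members, against 0.845, 0.191, 0.829 and 0 CPM in Lrrc15-type cells. Vtn, which codes for vitronectin, stood at 66.7, 30.5, 70.8 and 47.3 CPM in anti-PD-1, anti-LIF, combo and control members, against 1.27, 1.53, 0.691 and 0 CPM in Lrrc15-type cells. The 0 of control Lrrc15-type cells allows up to 1.91 CPM, the level of 3 UMIs. Agt codes for angiotensinogen and Agtr2 for the type 2 angiotensin receptor. The 10 lowest were Sbspon, Gzme, Moxd1, Mmp13, Gzmd, Ibsp, Tnn, Susd5, Col7a1 and Cyp26a1. Cyp26a1, which degrades retinoic acid, stood at 2.51, 3.13, 4.85 and 1.35 CPM in anti-PD-1, anti-LIF, combo and control members, against 99.7, 43.6, 100.4 and 160.1 CPM in Lrrc15-type cells.

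Of 30 cytokine and growth factor genes, 11 were higher in members than in Lrrc15-type cells and 4 lower (Pdgfa, Tgfb2, Tgfb3 and Mdk). Fgf10 and Fgf7, which act on epithelium, had mean log2 ratios of 3.26 and 2.01. Kitl, the ligand of the receptor Kit, had 2.24, and Gdf10, of the bone morphogenetic protein family, 3.56. Csf1, a growth factor of macrophages, stood at 296, 377, 433 and 348 CPM in anti-PD-1, anti-LIF, combo and control members, against 168, 182, 236 and 131 CPM in Lrrc15-type cells. Within every library Csf1 was higher in the members.

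Within the members, cells with a Pi16 UMI differed from those without. After thinning, 20 anti-PD-1, 56 anti-LIF, 166 combo and 63 control members had such a UMI, and 209, 667, 1001 and 360 had none. Over 4473 genes with at least 100 UMIs, 8.05% were higher in the cells with Pi16 in all 4 libraries and 10.9% were lower in all 4. Only the direction was counted here, however small the difference. Of 24 adventitial genes, 19 were higher in all 4 and 0 lower in all 4. Of 17 parenchymal genes, 1 was higher in all 4 (Ebf1) and 9 were lower. Pi16 is in the rule, the split was made after the data were seen, and a cell without a Pi16 UMI may still express the gene.

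Sema3c, a secreted guidance molecule, ranged over 250.0 to 539.7 CPM across libraries in members with Pi16, lowest with anti-LIF and highest in control, against 112 to 243 CPM in those without, lowest with anti-PD-1 and highest in control. Cd34 stood at 667, 952, 1205 and 1270 CPM in members with Pi16 of the anti-PD-1, anti-LIF, combo and control libraries, against 507, 597, 776 and 785 CPM in those without. Dpp4 stood at 100.0 CPM with anti-PD-1, 107 with anti-LIF, 249 in combo and 201 in control members with Pi16, against 73.4, 74.0, 146.5 and 88.9 CPM in those without in anti-PD-1, anti-LIF, combo and control. All 3 genes were higher with Pi16 in every library. No interval is given for this split, and Dpp4 had only 26 UMIs over all thinned anti-PD-1 members.

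Il6 and Cxcl2 were among the genes that were lower in the cells with Pi16. Il6 stood at 167, 679, 498 and 286 CPM in members with Pi16 of the anti-PD-1, anti-LIF, combo and control libraries, against 494, 798, 759.9 and 372 CPM in those without. Cxcl2, a neutrophil attractant, stood at 33.3, 202, 257 and 233 CPM with Pi16 in anti-PD-1, anti-LIF, combo and control, against 223, 353, 345 and 498 CPM without. Col15a1, a basement membrane collagen, stood at 267, 381, 357 and 307 CPM with Pi16 in anti-PD-1, anti-LIF, combo and control, against 437, 769, 734 and 385 CPM without. The inflammatory list was split: of 28 genes, 9 were higher with Pi16 in all 4 libraries, among them Gsn, C4b, Col14a1, Efemp1 and the chemokine gene Ccl11, and Il6, Lif, Cxcl1, Cxcl2, Cxcl12 and Ptgs2 were lower in all 4. Some of these differences were small. With anti-LIF the log2 ratio was -0.02 for Cxcl12, -0.06 for Cxcl1 and -0.22 for Il6.

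**Figure D3:**
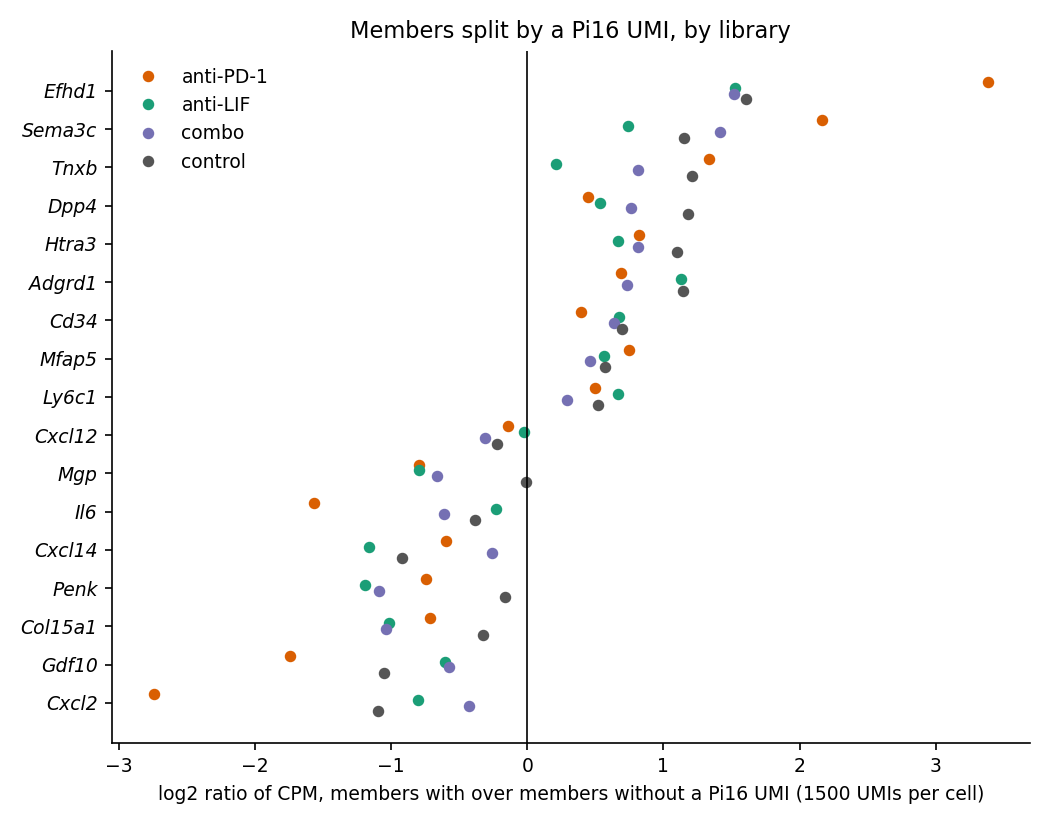
Log2 ratio of CPM in members with over members without a Pi16 UMI, each cell thinned to 1500 UMIs, 1 point for each library. Sema3c, Dpp4 and Cd34 lie right of 0 and Il6, Cxcl2 and Col15a1 left of 0 in all 4 libraries, and the anti-PD-1 points rest on 20 cells with Pi16.

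In anti-PD-1 members, 5 adventitial genes were called lower than in control members and 0 higher, and a set of matrix genes was called higher. A gene is called higher or lower here from a log2 ratio of 1 or -1, computed with 0.5 UMIs added. Of 9125 genes with at least 30 UMIs over both libraries, 3.56% were higher and 3.91% lower, and the median gene was at -0.01. Of the 25 adventitial genes with enough UMIs, the 5 were Dpp4, Sema3c, Cd55, Efhd1 and Smpd3, 3 were above 0, and the median was -0.58. Efhd1, a mitochondrial calcium-binding protein, stood at 16.6 CPM with anti-PD-1 and 74.4 CPM in control, a log2 ratio of -2.15 (-2.74 to -1.63). Sema3c stood at 112 CPM with anti-PD-1 and 267 CPM in control, at -1.25 (-1.48 to -1.04). Dpp4 stood at 48.7 CPM with anti-PD-1 and 108 CPM in control, at -1.15 (-1.499 to -0.82). When each cell counts equally, the ratio was -0.80 for Sema3c and -0.24 for Dpp4, short of the call. In members with no marker UMI of other cell types, Smpd3 was at -0.81, against -2.70 over all members, and Dpp4 at -0.92.

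Outside that list, Scara5, a receptor for ferritin, stood at 55.7 CPM with anti-PD-1 and 166 CPM in control members, at -1.57 (-1.89 to -1.27). Pamr1, a secreted relative of serine proteases, stood at 31.1 CPM with anti-PD-1 and 133 CPM in control, at -2.08 (-2.50 to -1.71). Both kept the call in every alternative tried.

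Bgn, which codes for the proteoglycan biglycan, stood at 6565 CPM in anti-PD-1 members and 2584 CPM in control members, a log2 ratio of 1.34 (1.30 to 1.39). Plod2, which hydroxylates collagen lysines, stood at 483 CPM with anti-PD-1 and 178 CPM in control, at 1.44 (1.28 to 1.59). Creb3l1, a transcription factor of collagen-secreting cells, stood at 197 CPM with anti-PD-1 and 40.2 CPM in control, at 2.29 (1.99 to 2.60). With anti-PD-1, Bgn, Plod2 and Creb3l1 were all clear of the counting error. Creb3l1 was also called higher than control with anti-LIF and in combo. Of 26 collagen and collagen-processing genes, 4 were higher (Col5a3, Col8a1, Loxl2 and Plod2), 0 lower, and the median was 0.39. When each cell counts equally, Col5a3 (0.88), Col8a1 (0.75) and Loxl2 (0.68) lost the call.

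Of 24 elastic fibre and proteoglycan genes, 6 were higher in anti-PD-1 members (Emilin1, Ltbp4, Bgn, Fmod, Podn and Vcan) and 0 lower, with a median of 0.07. Of 23 myofibroblastic genes, 7 were higher with anti-PD-1, among them Acta2 (1.66) and Tnc (1.70), which codes for tenascin C, and Spp1 was lower, though at -0.15 in members with no marker UMI of other cell types. In anti-PD-1 members 10 cells held 60.6% of the Acta2 and 59.8% of the Tnc UMIs, against 20.4% for Bgn. The tendon and fascia markers were also highest in this library (2471 CPM, against 1243 CPM in control members). Fmod, 1 of those markers, had -0.49 in members with no marker UMI of other cell types, a filter that did not cover tendon and fascia markers. Outside the gate the tendon and fascia markers were lower, at 85.2 CPM in anti-PD-1 and 39.8 CPM in control. The part of tendon and fascia RNA in the other genes was not tested.

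The inflammatory list went both ways in anti-PD-1 members, with 1 gene of 29 higher (Saa3), 2 lower (Cxcl2 and Efemp1) and a median of 0.13. Efemp1, a matrix protein of the fibulin family, stood at 359.8 CPM with anti-PD-1 and 784 CPM in control, at -1.12 (-1.25 to -1.003), and at -0.56 when each cell counts equally. Cxcl14, a chemokine of tissue fibroblasts, stood at 2274 CPM with anti-PD-1 and 920.3 CPM in control, at 1.30 (1.24 to 1.37), but at 0.18 in members with no marker UMI of other cell types.

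Of 22 interferon gamma and MHC class I genes, 0 were higher in anti-PD-1 members and 5 lower (Irf1, Cxcl10, Cd274, Irgm1 and Nlrc5), with a median of -0.56. Cxcl10, a ligand of Cxcr3 on T cells, stood at 361 CPM with anti-PD-1 and 1074 CPM in control, at -1.57 (-1.69 to -1.46), and at -0.93 when each cell counts equally. Irf1, Irgm1 and Cd274 also lost the call then, at -0.41, -0.55 and -0.96. The T and NK cell markers were lower in the same comparison (9.03 CPM in anti-PD-1 and 143 CPM in control members), and their part was not tested. Of the same 22 genes, Cxcl9 was higher and Cd274 lower with anti-LIF (median -0.37), and Cd274 and Gbp4 were lower in combo (median -0.36). Cxcl9 was at -0.31 with anti-LIF in members with no marker UMI of other cell types. Cd274, the ligand of PD-1, stood at 4.52 CPM with anti-PD-1, 6.44 with anti-LIF, 7.46 in combo and 21.6 in control members, and at 96.2 CPM in control cells outside the gate.

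In anti-LIF members, no adventitial gene was called and several matrix genes were higher than in control. Of 10265 genes, 3.58% were higher and 2.93% lower. Of 26 adventitial genes 8 were above 0, and the median was -0.18. Of 18 parenchymal genes, 1 was higher (Sparcl1), 0 lower and 15 above 0, with a median of 0.47. Sparcl1, an anti-adhesive matrix protein, stood at 160.5 CPM with anti-LIF and 55.4 CPM in control, at 1.53 (1.29 to 1.78). Col15a1 stood at 776 CPM with anti-LIF and 400.2 CPM in control, at 0.95 (0.86 to 1.05).

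Cpxm1, a secreted carboxypeptidase-like protein, stood at 716 CPM in anti-LIF members and 162 CPM in control members, at 2.14 (2.00 to 2.28). Bgn stood at 6085 CPM with anti-LIF and 2584 CPM in control, at 1.24 (1.20 to 1.27). Ltbp4, which tethers latent transforming growth factor beta to the matrix, stood at 422 CPM with anti-LIF and 157 CPM in control, at 1.42 (1.28 to 1.57). Of 24 elastic fibre and proteoglycan genes, 5 were higher (Emilin1, Ltbp4, Bgn, Fmod and Podn) and 0 lower, with a median of 0.24. After thinning, Emilin1 was at 0.34. Aebp1, a collagen-binding protein, stood at 1021 CPM with anti-LIF and 402 CPM in control, at 1.35 (1.26 to 1.44). None of 26 collagen genes was called, although 24 were above 0 (median 0.47).

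Of 29 inflammatory genes, 1 was higher in anti-LIF members (Saa3) and 0 lower, with a median of 0.26. Il6 stood at 832 CPM with anti-LIF and 449 CPM in control, at 0.89 (0.80 to 0.98). Ccl11, an eosinophil attractant, stood at 539.7 CPM with anti-LIF and 321 CPM in control, at 0.75 (0.64 to 0.86). Both ratios exceeded counting error and stayed under the call. In Lrrc15-type cells Il6 stood at 89.2 CPM with anti-LIF and 22.9 CPM in control.

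In combo members, Gsn, Cxcl13 and some retinol-processing genes were higher than in control members. Of 11174 genes, 3.62% were higher and 3.52% lower. Gsn, which codes for the actin-severing protein gelsolin, stood at 8574 CPM in combo and 3134 CPM in control, at 1.45 (1.42 to 1.48). Dpep1, a membrane dipeptidase, stood at 218 CPM in combo and 81.1 CPM in control, at 1.42 (1.23 to 1.62). Gsn and Dpep1 were the 2 of 29 inflammatory genes that were higher, with 0 lower and a median of 0.19. Cxcl13 stood at 514 CPM in combo and 75.03 CPM in control, at 2.77 (2.58 to 2.98). After thinning it was seen in 6.55, 5.81, 21.6 and 3.07% of anti-PD-1, anti-LIF, combo and control members, and in 0.135% of combo T cells. Of the Cxcl13 UMIs, 10 cells held 26.0% in combo and 87.4% in control. In members with no marker UMI of other cell types the ratio was 2.26 in combo, but for anti-PD-1 and anti-LIF it turned to -1.545 and -0.98, against 1.80 and 1.27 over all members. That filter left only 75 anti-PD-1, 292 anti-LIF and 223 control members, and its ratios are given without an interval. Il6 stood at 844 CPM in combo and 449 CPM in control, at 0.91 (0.83 to 0.99), just under the call.

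Adh1, an alcohol and retinol dehydrogenase, stood at 196 CPM in combo and 62.5 CPM in control members, at 1.65 (1.43 to 1.87). Aldh1a1, which makes retinoic acid, stood at 45.0 CPM in combo and 11.5 CPM in control, at 1.95 (1.47 to 2.52). Of 17 prostaglandin, retinoid and steroid genes, 4 were higher (Adh1, Aldh1a1, Rbp4 and Fkbp5) and 2 lower (Aldh1a2 and Crabp2). The retinoid genes thus did not share a direction. Aldh1a1 and Rbp4 were also called higher than control with anti-PD-1 and with anti-LIF, and Fkbp5 with anti-PD-1. Of the 4 genes, only Adh1 was called higher in combo than with either single antibody. Zbtb16, a transcriptional repressor induced by glucocorticoids in many cells, stood at 18.9 CPM in combo and 0.676 CPM in control, where it rested on 2 UMIs, at 4.49 (2.94 to 7.86). Fkbp5, known as a glucocorticoid target, stood at 56.0 CPM in combo and 21.6 CPM in control, at 1.36 (0.998 to 1.77), but another such target, Tsc22d3, was at -0.48 (-0.78 to -0.16).

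Of 26 adventitial genes, 3 were higher in combo members than in control (Opcml, Procr and Smpd3) and 0 lower, with a median of 0.08. Smpd3, a neutral sphingomyelinase, stood at 100.3 CPM in combo and 24.3 CPM in control, at 2.04 (1.70 to 2.41). Of 18 parenchymal genes, 2 were higher (Hspg2 and Sparcl1), 0 lower and 17 above 0, with a median of 0.52. Hspg2 was at 1.001 and lost the call in most alternatives. Lpl, which codes for lipoprotein lipase, stood at 836 CPM in combo and 422 CPM in control, at 0.99 (0.90 to 1.07). None of the 24 elastic fibre and proteoglycan genes or the 26 collagen genes was called, and of 23 myofibroblastic genes 0 were higher and 3 lower (Sdc1, Inhba and Spp1).

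Combo was also set against each single antibody, which avoids the control library. Against anti-PD-1, 5.0% of 10945 genes were higher in combo members and 3.12% lower. Of 26 adventitial genes, 6 were higher in combo (Dpp4, Pcolce2, Efhd1, Opcml, Pla1a and Smpd3), 0 lower and 23 above 0, with a median of 0.76. Dpp4 stood at 141 CPM in combo and 48.7 CPM with anti-PD-1, at 1.53 (1.24 to 1.84). Bgn stood at 2837 CPM in combo and 6565 CPM with anti-PD-1, at -1.21 (-1.24 to -1.18). Of 23 myofibroblastic genes, Mmp11 was higher in combo and 7 were lower, among them Acta2 (-1.24) and Tnc (-1.38).

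Against anti-LIF, 1.61% of 11387 genes were higher in combo members and 1.73% lower. Of 26 adventitial genes, 3 were higher in combo (Opcml, Procr and Smpd3), 0 lower and 22 above 0, with a median of 0.38. Gsn stood at 8574 CPM in combo and 3979 CPM with anti-LIF, at 1.11 (1.09 to 1.13). Cpxm1 stood at 261 CPM in combo and 716 CPM with anti-LIF, at -1.45 (-1.52 to -1.38). Bgn and Ltbp4 were the 2 of 24 elastic fibre and proteoglycan genes that were lower in combo, at -1.10 (-1.12 to -1.08) and -1.31 (-1.40 to -1.22), and 0 were higher.

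**Figure D4:**
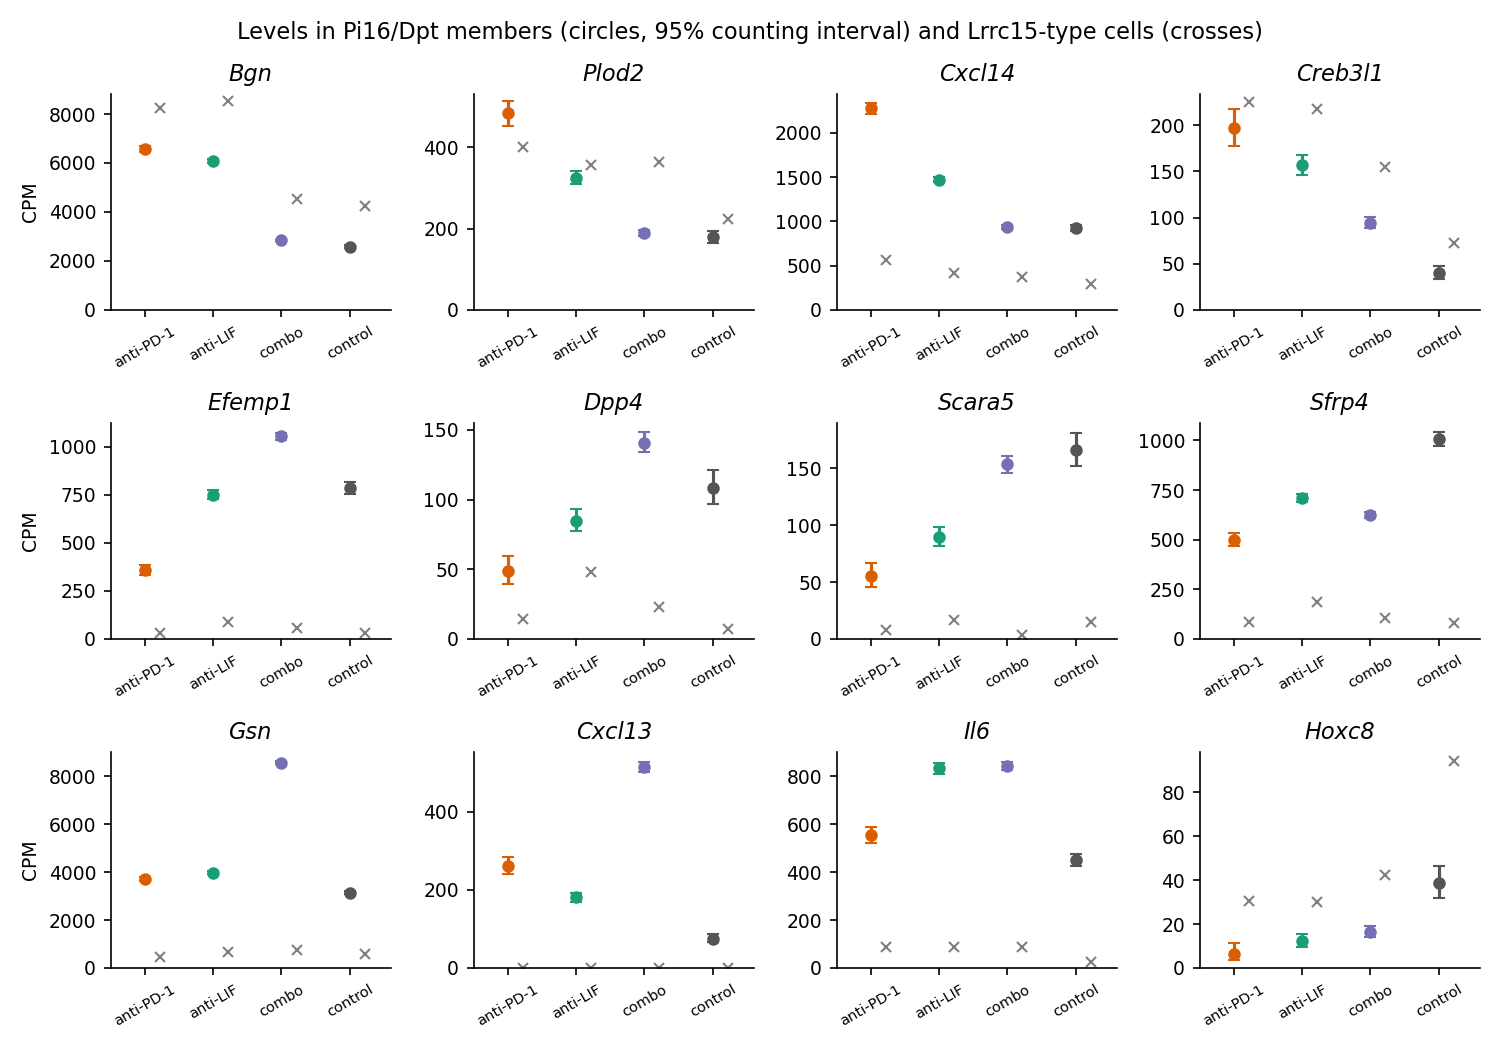
CPM of 12 genes in Pi16/Dpt members (circles, with 95% counting intervals) and in Lrrc15-type cells (grey crosses) of each library. Among members, Bgn, Plod2 and Cxcl14 are highest with anti-PD-1, Dpp4 and Efemp1 lowest there, Gsn and Cxcl13 highest in combo, and Hoxc8 highest in control.

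Hoxc8 was called lower than the shared control in all 3 treated libraries. Hoxc8, a positional homeobox gene, stood at 6.52, 12.1 and 16.4 CPM in anti-PD-1, anti-LIF and also combo members, against 38.5 CPM in control members. The log2 ratio was -2.51 (-3.52 to -1.73) with anti-PD-1, -1.66 (-2.13 to -1.22) with anti-LIF, and in combo -1.23 (-1.58 to -0.88), the combo value at -0.90 when each cell counts equally. In Lrrc15-type cells Hoxc8 stood at 30.4, 30.2, 42.2 and 94.0 CPM in anti-PD-1, anti-LIF, combo and control, so control was the high library there as well. Gfra1, a receptor for glial cell line-derived neurotrophic factor, stood at 101, 49.3, 34.9 and 126 CPM in anti-PD-1, anti-LIF, combo and control members. Ccn3, a matricellular protein, stood at 159 CPM with anti-PD-1, 140.3 with anti-LIF, 93.2 in combo and 295 in control. For both, combo was the low library, with ratios to control of -1.86 (-2.07 to -1.65) and -1.67 (-1.80 to -1.53). With anti-PD-1, Gfra1 was at -0.32, and at 0.21 in members with no marker UMI of other cell types.

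The LIF and interleukin-6 family was of interest because LIF was an antibody target. Lif stood at 105, 65.1, 44.7 and 71.3 CPM in anti-PD-1, anti-LIF, combo and control members. The log2 ratio to control was 0.56 (0.28 to 0.85) with anti-PD-1, -0.13 (-0.38 to 0.12) with anti-LIF, and in combo -0.68 (-0.91 to -0.43), and 10 cells held 61.9, 43.8, 32.8 and 49.3% of the UMIs in anti-PD-1, anti-LIF, combo and control. Cells outside the gate had Lif at 87.4, 35.7, 38.4 and 172 CPM in anti-PD-1, anti-LIF, combo and control. Lifr, the receptor subunit of LIF, stood at 29.1, 33.5, 38.4 and 33.5 CPM in anti-PD-1, anti-LIF, combo and control members, each treated library within counting error of control. Il6st, the shared signalling subunit, stood at 455 CPM with anti-PD-1, 404 with anti-LIF, 450.5 in combo and 444 in control. Over Lrrc15-type cells, Lifr had a mean log2 ratio of 1.21 and Il6st of 1.16.

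Among the other ligands and receptors of the family, Il27ra was lower with anti-PD-1, Clcf1 with anti-LIF, and Il11 and Clcf1 in combo. Il11 was at 0.041 in combo members with no UMI of graft markers such as Krt7, Krt19 and Epcam.

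Genes known as STAT3 targets were called in both single-antibody libraries. Of 20, 4 were higher in anti-PD-1 members (Il4ra, Timp1, Saa3 and Hp) and 1 lower (Cish). In anti-LIF members 3 were higher (Timp1, Saa3 and Hp) and 0 lower, and none was called in combo. Over all genes, 3.56% were higher and 3.91% lower with anti-PD-1, and 3.58% and 2.93% with anti-LIF. Above 0 were 10 genes with anti-PD-1 (median -0.03), 16 with anti-LIF (median 0.33) and 15 in combo (median 0.49). Hp, which codes for haptoglobin, was at -0.23 for anti-PD-1 in members with no marker UMI of other cell types. Socs3, a feedback inhibitor of this route, stood at 432, 624, 752 and 455 CPM in anti-PD-1, anti-LIF, combo and control members. Its log2 ratio to control was -0.08 (-0.20 to 0.05) with anti-PD-1, 0.45 (0.36 to 0.55) with anti-LIF, and in combo 0.72 (0.64 to 0.81). Timp1, an inhibitor of matrix proteases, stood at 1163, 798, 560.2 and 319 CPM in anti-PD-1, anti-LIF, combo and control members, and its ratios of 1.87 for anti-PD-1 and 1.32 for anti-LIF were 0.84 and 0.72 when each cell counts equally. These are RNA levels and not a measure of STAT3 activity.

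The genes at the ends of each comparison, chosen by the fixed rule of size, included many markers of other cells. These were muscle, lymphocyte and macrophage genes and, at the high end of combo, salivary gland genes. In anti-PD-1 over control the 10 highest were Nos2, Atp2a1, Acta1, Serpinb2, Chad, Tnnc2, Tnnt3, Mylpf, Tnn and Myl1. Of these, 10 anti-PD-1 members held 87.6% of the UMIs of Nos2, the inducible nitric oxide synthase, and all of those of Acta1, the skeletal muscle actin gene. The 10 lowest were Il2rb, Ctla4, Trbc2, Trac, Foxq1, Cd3g, Igkc, Rac2, Cd8a and Selplg, most of them lymphocyte genes. In anti-LIF over control the 10 highest were Ighg1, Mmp12, Arg1, Serpinb2, Fabp4, Retnla, Kif22, Lyz2, Igfbp2 and Cd36, and the 10 lowest Foxq1, Wnt10a, Spn, Tspan8, Foxc2, Notum, Ctla4, Spp1, Trbc2 and Igf2. Lyz2, a lysozyme of macrophages, stood at 166 CPM in anti-LIF members and 5131 CPM in anti-LIF cells outside the gate. In combo over control the 10 highest were Bpifa2, Smr3a, Ngp, Mup11, Ltf, Cfd, BC037156, Mup17, Dhrs9 and Chia1, and the 10 lowest Ms4a4b, Foxq1, Edil3, Cd8a, Il2rb, Cd3g, Ptpn22, Notum, Spp1 and Trbc2. Bpifa2, a salivary gland gene, stood at 146 CPM in combo members and 7364 CPM in combo cells outside the gate.

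A second selection, made after the values were seen, asked for more of the library in which a gene was higher: a UMI in at least 5% of members, at least 2 times the level of cells outside the gate, and at most 40% of the UMIs in 10 cells. It left 30 higher and 34 lower genes for anti-PD-1, 46 and 12 for anti-LIF, and 78 and 8 for combo. Scara5, Pamr1, Creb3l1, Cpxm1, Aebp1, Zbtb16, Hoxc8, Gfra1 and Ccn3 were described above because they passed it.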

How the data were processed

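Single-cell RNA-seq was made from subcutaneous Pan02 tumours with the SeekOne MM 3' kit, per the labels' protocols, which combined 3 samples in each of 4 libraries. The authors deposited UMI counts in whole numbers for each gene in each barcode, not normalized, with lists of barcodes and of 32285 genes. Per the submitters' processing notes the build was mm10 and Seurat 4.0.3 was used. The aligner, counter and cell calling are not given in the sources used here. The deposited counts came from 15191, 15046, 17472 and 20393 barcodes of the anti-PD-1, anti-LIF, combo and control libraries.

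Members and gene lists were chosen with earlier results of these data known. Counts were summed over members and scaled to CPM, and log2 ratios used 0.5 added UMIs and at least 30 UMIs over both libraries. Intervals are 95% exact Poisson, Clopper-Pearson or conditional binomial intervals. UMIs of a gene within a cell are not independent, so these intervals are too narrow for a condition. Intervals of ratios of gate shares are instead too wide as counting intervals, because the counts were treated as unbounded by the gate. The named genes were those of the rule, of the fixed lists, and the 10 highest and 10 lowest with at least 60 UMIs, an interval without 0 and the same sign after thinning and with each cell counted equally, leaving out genes named Gm, Rik, Rpl, Rps or mt-. A second selection of genes was made after values were seen. Alternatives changed the member rule, cell filters, scaling, thinning and the minimum of UMIs. Python 3.11.15 (numpy 2.4.6, scipy 1.17.1, pandas 2.3.3, matplotlib 3.10.9) was used, and edgeR 4.0.16 in R 4.3.3 for TMM factors only. Only the ratio, its interval and the fold threshold were tested on simulated data. Those counts were independent draws of summed profiles, so the member rule, thinning and differences between cells were not tested. No count model was fitted, since there was 1 library per group. Results of 1 gene are not reported here.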

Additional observations from a re-analysis of the deposited data

Results flagged for a closer look

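The share of Pi16/Dpt fibroblasts moved in opposite directions in pairs of comparisons that differ in 1 antibody. Each group was a single library, so none of these differences was tested. Among kept cells, the log2 ratio was -0.45 for anti-PD-1 over control, where anti-LIF was absent, and 0.33 for combo over anti-LIF, where it was present in both. Within the fibroblast gate, the same comparisons gave -0.63 for anti-PD-1 over control and 0.33 for combo over anti-LIF. Also within the gate, the ratio was -0.41 for anti-LIF over control and 0.55 for combo over anti-PD-1. Combo thus had a larger share of the gate than either single antibody, and each single antibody a smaller one than control.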

How the results depend on the processing

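With 1 library per condition, which combined 3 samples, a difference between conditions cannot be told apart from a difference between libraries. No paired analysis was possible because each group had 1 library. Low levels rest on few UMIs or cells, and sums over cells weight deep cells more. Over 90 recomputed shares 74 stayed within their counting interval, which is too wide for shares of the gate. Over 270 recomputed list medians 247 kept their sign and moved by at most 0.25. Of 2254 recomputed gene ratios, 1782 stayed within their limit, 464 left it and 8 of called genes turned direction. The limit was the counting interval, or the standard deviation over libraries for ratios to Lrrc15-type cells. This pooled total hides uneven settings. The 3 other scalings and a minimum of 3 marker UMIs moved 0 of 214 ratios each. Without marker UMIs of other cell types, 113 of 196 left the limit and 6 turned direction. Thinning moved 97 of 259, and so did counting each cell equally. TMM, median-of-ratios and leaving out mitochondrial genes shifted all ratios by -0.02 to 0.02.

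As a share of kept cells, a rule without C3 gave -0.77 for anti-PD-1 over control, 1.16 for anti-LIF over control, 2.44 for combo over anti-PD-1 and 0.51 for combo over anti-LIF. Members with no marker UMI of other cell types gave -1.19 with anti-PD-1, 0.80 with anti-LIF, and in combo 0.91 over control, with 0.11 for combo over anti-LIF. A mitochondrial limit of 10% gave 1.115 for anti-LIF and 1.44 for combo. As a share of the gate, the rule without C3 gave -0.95 for anti-PD-1 and -0.59 for anti-LIF over control, 0.86 for combo over anti-PD-1 and 0.50 for combo over anti-LIF. Combo over anti-LIF was 0.56 without marker UMIs of other cell types and 0.45 with the rule applied after thinning.

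The counts of genes past the fold, higher and lower, were 325 and 357 with anti-PD-1, 368 and 301 with anti-LIF, and 404 and 393 for combo. After thinning they were 147 and 139 of 4038 genes with anti-PD-1, 193 and 115 of 5897 with anti-LIF, and 254 and 176 of 6980.0 for combo. Without marker UMIs of other cell types, fewer genes had enough UMIs. There, 228 were higher and 220.0 lower of 4536 for anti-PD-1 (5.03% and 4.85%), 185 and 100 of 5800.0 for anti-LIF (3.19% and 1.72%), and 254 and 142 of 6738 for combo (3.77% and 2.11%). With each cell counted equally, 567 were higher with anti-PD-1, 571 with anti-LIF, and in combo 771. A minimum of 1 UMI gave 1783 and 2577 with anti-PD-1, 1336 and 1905 with anti-LIF, and 1100.0 and 2228 for combo. A minimum of 100 UMIs gave 132 and 92 with anti-PD-1, 167 and 80 with anti-LIF, and 187 and 135 for combo. Of genes passing the second selection as higher, 17 for anti-PD-1 and 25 for anti-LIF stood at 5 times the level outside the gate. Fewer cells and UMIs enter the stricter settings, and other causes were not tested.

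Called genes turned direction in members without marker UMIs of other cell types: Cxcl13 (-1.545), Fmod (-0.49) and Hp (-0.23) for anti-PD-1, and Cd36 (-0.13), Cxcl9 (-0.31) and Cxcl13 (-0.98) for anti-LIF. For combo, Cyp26a1 was at -0.93 with the rule without C3, and Il11 at 0.041 in members with no graft marker UMI. The cause was not tested.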

Other observations

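Cell cycle transcripts were found in a minority of Pi16/Dpt fibroblasts. After thinning to 1500 UMIs, a UMI of Mki67, Top2a or Cdk1, which mark dividing cells, was seen in 9.61% (6.12 to 14.2) of anti-PD-1 members, 9.27% (7.25 to 11.6) of anti-LIF, 6.00% (4.71 to 7.52) of combo, and 5.20% (3.29 to 7.77) of control members. In Lrrc15-type cells the shares were 13.2% with anti-PD-1, 8.46% with anti-LIF, 8.42% in combo, and 4.55% in control. Of 18 proliferation genes, Mki67 and Rrm2 were higher in anti-LIF members than in control, and none was called with anti-PD-1 or in combo. Genes induced by tissue dissociation differed little, with 0 of 17 higher in any treated library, and Atf3 lower with anti-PD-1 and Hspa1b and Hspb1 lower in combo.

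Secreted regulators of growth varied between libraries. Igfbp4, a binding protein of insulin-like growth factors, stood at 4155, 2607, 2682 and 4830 CPM in anti-PD-1, anti-LIF, combo and control members. Its log2 ratio to control was -0.22 (-0.26 to -0.18) with anti-PD-1, -0.89 (-0.92 to -0.86) with anti-LIF, and in combo -0.85 (-0.88 to -0.82), so the libraries with anti-LIF were the low pair. Sfrp4, a secreted Wnt antagonist, stood at 501 CPM with anti-PD-1, 709.5 with anti-LIF, 624 in combo and 1005 in control, highest in control. Ly6c1, a surface marker of adventitial fibroblasts, stood at 1137 CPM with anti-PD-1, 1298 with anti-LIF, 1981 in combo and 1984 in control, lowest in the single-antibody libraries. Mmp3, a stromal metalloprotease, stood at 854 CPM with anti-PD-1, 939 with anti-LIF, 1077 in combo and 624 in control, and Has1, a hyaluronan synthase, at 599, 983, 1018 and 763 CPM in anti-PD-1, anti-LIF, combo and control. Of 13 complement genes compared with anti-PD-1, 0 were higher and 2 lower (Cfi and Cd55), and Cfi was at -0.35 in members with no marker UMI of other cell types. Clu was the 1 of 14 that was higher with anti-LIF, and at 0.35 in members with no marker UMI of other cell types. In combo, Cfd and C3ar1 were higher and Cfi lower of 16, and 3 cells held the Cfd UMIs. Macrophage markers were also higher in combo than in control members (289.7 and 63.9 CPM), and their part in C3ar1 was not tested. Over all genes, 3.56% were higher and 3.91% lower with anti-PD-1. With anti-LIF these shares were 3.58% and 2.93%, and in combo 3.62% and 3.52%.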
